A study of Mus musculus with 4 samples.

Results

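The lipid droplet coat genes of brown adipose tissue (BAT) were examined as a set of 10 named genes: the 5 perilipins (Plin1, Plin2, Plin3, Plin4 and Plin5), the 3 CIDE genes (Cidea, Cideb and Cidec) and both fat storage-inducing transmembrane genes (Fitm1 and Fitm2). All 10 were found among the 55387 rows listed for each library. RNA sequencing was performed on BAT of 4 male C57BL/6 mice aged 15 weeks, 1 library per mouse. Of these, 2 were Sox4f/f mice, which carry loxP-flanked Sox4 and which the labels also call WT, and 2 were Sox4-MKO littermates, which carry the same floxed alleles together with a Cre recombinase driven by Myf5. Myf5-Cre acts in the precursors of brown adipocytes and also of skeletal muscle, so the deletion is not restricted to fat, and every library was made from whole tissue. The comparison asks how the level of each coat gene in BAT differs between the genotypes. Values are FPKM, a count of sequenced fragments divided by transcript length and by the size of the library, so that levels of different genes can be set side by side.

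A lipid droplet is a core of triglyceride under a single phospholipid layer, and the proteins on that layer decide how readily the fat is stored or released. Perilipins coat the layer and hold back or recruit the lipases, CIDE proteins gather where droplets touch and pass lipid from the smaller to the larger one, and FIT proteins of the endoplasmic reticulum act in the budding of new droplets. Brown adipocytes hold many small droplets beside their mitochondria, white adipocytes a single large one.

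Sox4, the targeted gene, had 1.98 and 1.06 FPKM in Sox4f/f mice 1 and 2 and 0.981 and 3.06 FPKM in mice labelled Sox4-MKO, so its level did not separate the genotypes as the labels would have it. Skeletal muscle markers summed to 273 and 998 FPKM in Sox4f/f mice 1 and 2, and to 18669 and 3590 FPKM in Sox4-MKO mice 1 and 2, which sets Sox4-MKO mouse 1 apart. The labelled tissue was borne out by its markers, with Ucp1 between 733 and 1935 FPKM and Adipoq between 711 and 1123 FPKM. Of 8 brown adipocyte markers 6 had lower levels in mice labelled Sox4-MKO, and of 5 white adipocyte markers 4 had higher ones, at an unadjusted p under 0.05. By the same rule 8.28% of all tested genes were lower and 7.95% higher. The depth was estimated at 12100000 to 16700000 fragments per library from the spacing of the lowest values, an approximate figure since the files hold no counts. These values form a first peak, taken as 1 fragment, and a second, expected at 2 fragments. The second lay at 2.01 and 2.04 times the first in Sox4f/f mice 1 and 2 and at 2.06 times in Sox4-MKO mouse 1. In Sox4-MKO mouse 2 it lay at 1.53 times, so the depth and fragment figures of that library are less certain.

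Cidea, Plin5 and Plin3 had lower levels in both libraries labelled Sox4-MKO than in Sox4f/f and Fitm1 had a higher one at an unadjusted p under 0.05, and no coat gene passed after adjustment over all genes. That is 3 of 10 members lower, where 8.28% of the 12877 tested genes were lower by the same rule, and 1 of 10 higher, where 7.95% were. All 10 members passed the filter on low values, a mean FPKM over 1 in either genotype. By limma with Benjamini-Hochberg adjustment 0 members had an adjusted p under 0.05, and over all tested genes the share was 0%, with 1066 genes lower and 1024 higher before adjustment. The smallest adjusted p of any gene was 0.191. Among 14 alternative settings a member passed after adjustment in 1, the scaling to pan-adipocyte markers, where it was Fitm1. Fewer members were lower without either Sox4f/f mouse, while more were lower and none was higher without Sox4-MKO mouse 1. Over all tested genes fewer were lower whichever library was left out. The log2 fold change was below 0 for 9 of the 10. Plin1 turned positive under quantile normalization, and Cidec without Sox4-MKO mouse 1. Plin2 did so without Sox4f/f mouse 2 and without Sox4-MKO mouse 1. The summed FPKM of all rows was itself lower in mice labelled Sox4-MKO (495145 and 472062) than in Sox4f/f (578011 and 544564). With a common sum that left out mitochondrially encoded genes and Ucp1, 9 members stayed below 0, from Cideb at -0.88 to Plin4 at -0.02. The genotypes did not overlap, with both libraries labelled Sox4-MKO lower, for 7 members (29.6% of all tested genes), and with both higher for 1 (21.7%). The median of the 10 log2 fold changes was -0.21, beside -0.05 over all tested genes. In whole tissue, fewer cells of a type and less RNA per cell cannot be told apart. Fibroblast and progenitor markers had higher levels in mice labelled Sox4-MKO for 5 of 5 genes at an unadjusted p under 0.05, with a median log2 fold change of 0.99 and a sum of 260 to 301 FPKM in Sox4f/f and 583 to 642 FPKM in the other genotype, and their part in the coat gene levels was not tested.

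**Figure D1:**
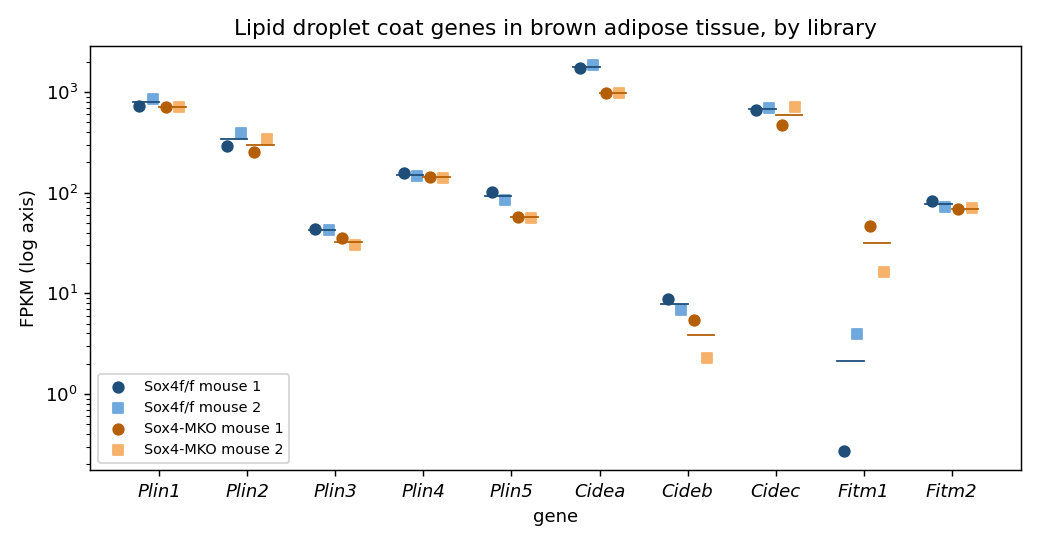
FPKM (log axis) of the 10 lipid droplet coat genes in each of the 4 libraries, with circles for mouse 1, squares for mouse 2 and short lines for the mean of each genotype. Cidea is the highest of the 10 in every library, and Fitm1 spans 0.272 to 46.8 FPKM.

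By level, the coat genes spread widely. In Sox4f/f the order of the averaged FPKM was Cidea, Plin1, Cidec, Plin2, Plin4, Plin5, Fitm2, Plin3, Cideb and Fitm1. Cidea ranked 26 and 20 among all rows in Sox4f/f mice 1 and 2, and 52 and 41 in Sox4-MKO mice 1 and 2. In the libraries labelled Sox4-MKO the order was the same down to Plin4, after which Fitm2 stood above Plin5 and Fitm1 came beside Plin3. Fitm1 and Plin3 overlapped there, and Plin1 and Cidec lay closer in Sox4-MKO mouse 2 (710 and 705 FPKM) than Cidec lay between the mice of that genotype.

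Among the perilipins, Plin5 stood furthest from equal levels and Plin3 next, while Plin1, Plin2 and Plin4 showed differences within the error of the fit. Skeletal muscle, whose markers were higher in mice labelled Sox4-MKO (median log2 fold change 3.83), is a possible further source of Plin5. Its part in the Plin5 level was not tested. Plin5, which places droplets against mitochondria in tissues that burn fat, had 102 and 84.4 FPKM in Sox4f/f mice 1 and 2 and 58.0 and 56.1 FPKM in mice labelled Sox4-MKO. Every Sox4f/f value was above every Sox4-MKO value, and the averaged level differed by -38.8% (93.2 ± 12.3 against 57.1 ± 1.30 FPKM, SD, n = 2 mice each). Its log2 fold change was -0.69 (SE 0.14), with a limma p of 0.0052 and an adjusted p of 0.207, and the unadjusted p was under 0.05 in 14 of 14 alternative settings.

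Plin3, the perilipin found in most cell types and also free in the cytosol, had 43.4 and 42.2 FPKM in Sox4f/f and 35.4 and 30.0 FPKM in mice labelled Sox4-MKO. The groups did not overlap, and the spread was larger in mice labelled Sox4-MKO (SD 3.76 FPKM) than in Sox4f/f (SD 0.844 FPKM). The log2 fold change of -0.38 (SE 0.13) had a limma p of 0.0396 and an adjusted p of 0.285. The call was lost in 3 of the 4 omissions of a library: p was 0.153 without Sox4f/f mouse 1, 0.126 without Sox4f/f mouse 2 and 0.105 without Sox4-MKO mouse 2, whereas it was 0.0229 without Sox4-MKO mouse 1. It was 0.0511 with the mouse number as a block.

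Plin1, the main perilipin of adipocytes, which keeps the lipase activator Abhd5 bound until the cell is stimulated, had 726 and 851 FPKM in Sox4f/f and 708 and 710 FPKM in mice labelled Sox4-MKO. Both of the latter lay below the former, but Sox4f/f mouse 1 exceeded them by less than the mice of its own genotype differed. It differed by a log2 fold change of -0.15 (95% interval -0.50 to 0.20, limma p of 0.319, adjusted p of 0.602), and 0.0797 after quantile normalization. Plin4, a perilipin of white adipocytes and muscle, was close to level at 156 and 147 FPKM in Sox4f/f beside 144 and 142 FPKM, with a log2 fold change of -0.09 (95% interval -0.37 to 0.20, limma p of 0.456, adjusted p of 0.708).

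Plin2, the perilipin of most non-adipose cells and of small droplets, had 292 and 392 FPKM in Sox4f/f and 254 and 342 FPKM in mice labelled Sox4-MKO. The genotypes overlapped, and mouse 2 was the higher in each. Its log2 fold change of -0.20 (95% interval -0.79 to 0.39, limma p of 0.418, adjusted p of 0.680) became 0.0129 when Sox4f/f mouse 2 was left out and 0.0139 when Sox4-MKO mouse 1 was. Macrophages also carry Plin2: of 10 macrophage markers, 6 were higher at an unadjusted p under 0.05 and 0 lower. Over all tested genes 7.95% were higher and 8.28% lower by that rule. The summed level of the markers was 215 to 326 FPKM in Sox4f/f and 439 to 445 FPKM in mice labelled Sox4-MKO. Trem2 (-0.41) and Gpnmb (-0.13), which mark lipid-laden macrophages, had log2 fold changes below 0 with overlapping genotypes. The part of macrophages in the Plin2 level was not tested.

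**Figure D2:**
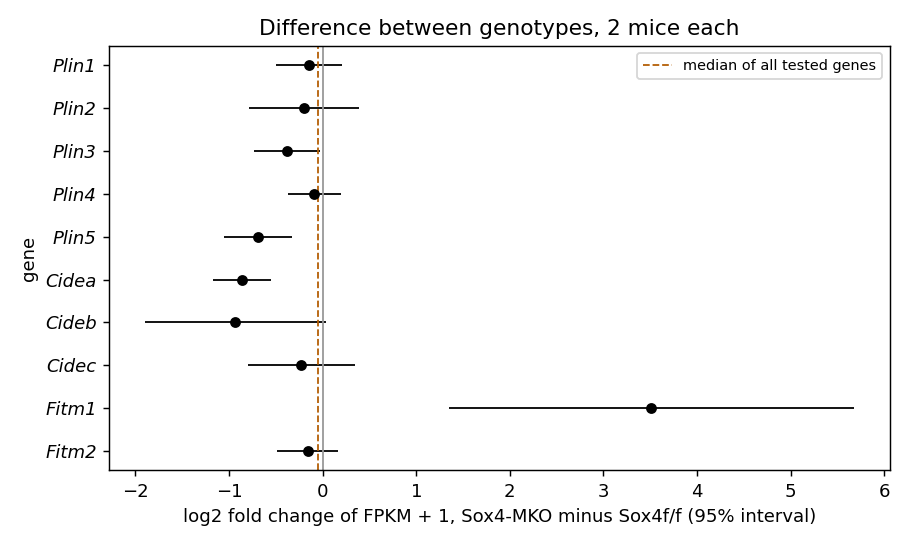
Log2 fold change of FPKM + 1, Sox4-MKO minus Sox4f/f, for each coat gene, as points with 95% intervals from limma (2 mice per genotype); the dashed line is the median of all tested genes, -0.05. The intervals of Plin3, Plin5 and Cidea lie below 0 and that of Fitm1 above 0, and Plin1, Plin2 and Cidec, drawn below 0, turned positive under at least 1 alternative setting.

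Cidea, the CIDE gene of brown fat, was the coat gene with the smallest p. It had 1742 and 1849 FPKM in Sox4f/f and 989 and 984 FPKM in mice labelled Sox4-MKO. The values of the genotypes lay far apart, and the mice within each were close. The log2 fold change was -0.86 (SE 0.12, 95% interval -1.18 to -0.55), with a limma p of 0.0011 and an adjusted p of 0.196, and it ran from -0.99 to -0.61 over 14 alternative settings, all with an unadjusted p under 0.05. The smallest size came with quantile normalization.

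Cidec, whose protein drives the growth of the single large droplet of white adipocytes, had 665 and 690 FPKM in Sox4f/f and 475 and 705 FPKM in mice labelled Sox4-MKO. Sox4-MKO mouse 1 was the lowest and Sox4-MKO mouse 2 the highest of the 4, so the genotypes overlapped. The log2 fold change of -0.23 (95% interval -0.80 to 0.35, limma p of 0.348, adjusted p of 0.627) was -0.51 without Sox4-MKO mouse 2 with an unadjusted p of 0.0154, and 0.0581 without Sox4-MKO mouse 1.

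Cideb, the CIDE gene best known from hepatocytes and enterocytes, was low at 8.79 and 6.85 FPKM in Sox4f/f and 5.40 and 2.29 FPKM in mice labelled Sox4-MKO. The groups did not overlap, yet the mice labelled Sox4-MKO differed by more than the gap between the groups. These levels rest on roughly 143, 101, 83 and 46 fragments in the same order, the last less certain because of the uneven spacing in Sox4-MKO mouse 2. The log2 fold change of -0.93 (95% interval -1.90 to 0.03) had a limma p of 0.0551 and an adjusted p of 0.317, and became -0.45 when Sox4-MKO mouse 2 was left out and -1.42 when mouse 1 of that genotype was, the latter with a p of 0.0089. Cideb is also the least certain member in its counting, since 1136 of its 1488 exonic bases are shared with Nop9 on the opposite strand, which had 6.87 and 5.22 FPKM in Sox4f/f and 6.22 and 3.45 FPKM in mice labelled Sox4-MKO. The labels describe a stranded library and the methods a kit that does not mark strand, so reads of the pair may not be separable. Hepatocyte markers were near 0, with the 6 genes summing to 0.143 to 2.08 FPKM in a library and Alb at most 1.08 FPKM.

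Within the CIDE family the Cidea and Cidec shares of the mRNA pool did not overlap between the genotypes. The Cideb share did, at 0.364% and 0.269% in Sox4f/f and 0.368% and 0.135% in the libraries labelled Sox4-MKO. With so little Cideb, the Cidea and Cidec shares nearly mirror each other. Such shares are formed inside a library and do not depend on a scaling factor between libraries. Cidea made up 72.1% and 72.6% of the summed CIDE FPKM in Sox4f/f, and 67.3% and 58.2% in the libraries labelled Sox4-MKO. The Sox4f/f mice were alike, and the mice labelled Sox4-MKO were both lower and further apart. For each Cidea transcript there were 0.382 and 0.373 of Cidec in Sox4f/f, and 0.48 and 0.717 in the libraries labelled Sox4-MKO. The log2 ratio of Cidec to Cidea was higher by 0.64, with an exact two-sided permutation p of 0.333, which is the smallest that 2 mice against 2 can give, and 0.5 after adjustment over the 3 ratios compared. Without Sox4-MKO mouse 2 this difference was 0.35, and without Sox4-MKO mouse 1 it was 0.93. The summed CIDE level was 2416 and 2547 FPKM in Sox4f/f and 1469 and 1692 FPKM in mice labelled Sox4-MKO.

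In the perilipin pool, Plin1 accounted for 55.0% and 56.1% of the summed FPKM in Sox4f/f and for 59.0% and 55.5% in the libraries labelled Sox4-MKO, with overlap between the genotypes. Plin5 contributed 7.72% and 5.57% in Sox4f/f and 4.84% and 4.39% in mice labelled Sox4-MKO, and the genotypes did not overlap (exact two-sided permutation p = 0.333). The log2 ratio of Plin2 to Plin5 was 1.52 and 2.22 in Sox4f/f and 2.13 and 2.61 in the libraries labelled Sox4-MKO, which overlapped (exact two-sided permutation p = 0.667, also after adjustment).

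**Figure D3:**
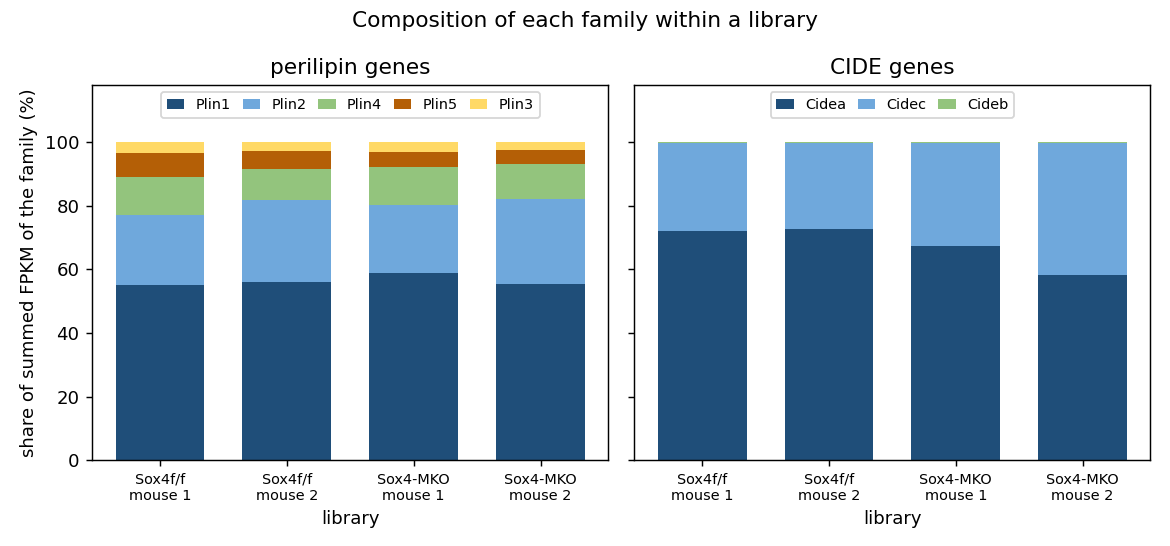
Share of each gene in the summed FPKM of its family (percent, bars stacked to 100), for perilipins on the left and CIDE genes on the right, 1 bar per library. Cidea makes up 72.1% and 72.6% of the CIDE sum in the Sox4f/f bars and 67.3% and 58.2% in the Sox4-MKO bars, and Cideb is under 0.4% in each.

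The FIT genes differed from each other. Fitm2, the form found in fat and most tissues, had 83.5 and 72.7 FPKM in Sox4f/f and 69.3 and 69.9 FPKM in mice labelled Sox4-MKO, a log2 fold change of -0.16 (95% interval -0.49 to 0.17, limma p of 0.257, adjusted p of 0.548). The groups did not overlap, but Sox4f/f mouse 2 was above the libraries labelled Sox4-MKO by less than it was below Sox4f/f mouse 1. Fitm1, the form of skeletal muscle and heart, had 0.272 and 3.97 FPKM in Sox4f/f and 46.8 and 16.2 FPKM in mice labelled Sox4-MKO. It rests on roughly 4, 47, 579 and 262 fragments, the last again less certain. Its genotypes did not overlap, and values within each differed several-fold. The log2 fold change was 3.51 (SE 0.82) with a limma p of 0.0095 and an adjusted p of 0.214. It ran from 2.53 to 4.49 as single libraries were left out, and without Sox4-MKO mouse 1 it was 2.77 with a p of 0.0609.

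Fitm1 moved with the markers of skeletal muscle. Of the 14 markers, 12 were higher at an unadjusted p under 0.05, where 7.95% of all tested genes were. All 14 markers had a positive log2 fold change, with a median of 3.83. Of them, 13 put the 4 libraries in the same order as Fitm1 did. Their summed level was 273 to 998 FPKM in Sox4f/f and 3590 to 18669 FPKM in mice labelled Sox4-MKO, which is 0.0473% to 0.183% and 0.76% to 3.77% of all FPKM, and no marker was at 0 in any library. Per 1000 FPKM of these markers there were 0.995 and 3.98 FPKM of Fitm1 in Sox4f/f and 2.51 and 4.51 FPKM in mice labelled Sox4-MKO, so the ratio overlapped between the genotypes. The part of muscle in the Fitm1 difference was not tested.

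**Figure D4:**
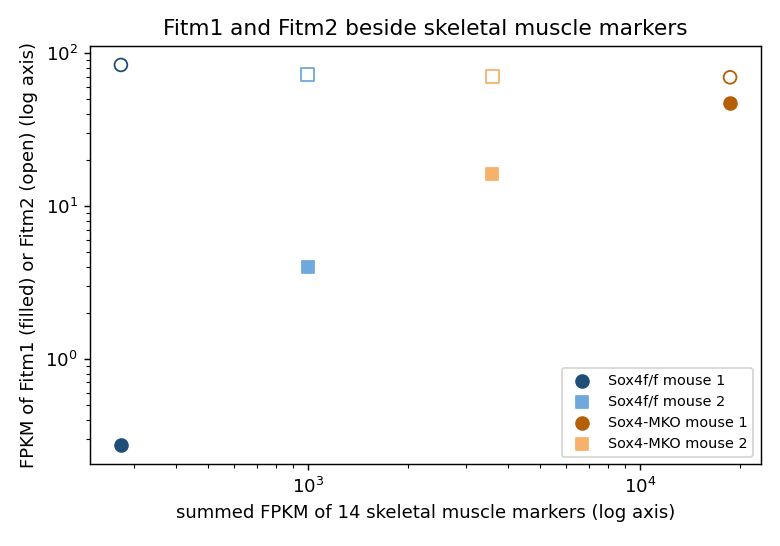
FPKM of Fitm1 (filled) and Fitm2 (open) against the summed FPKM of 14 skeletal muscle markers in the same library (both axes log), 1 colour per library. Fitm1 is ordered as the markers are, from 0.272 FPKM at 273 to 46.8 FPKM at 18669, while Fitm2 stays between 69.3 and 83.5 FPKM.

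The genes that work on the droplet beside the coat were taken from fixed lists. Of the 10 lipolysis partners, 5 were lower and 1 higher at an unadjusted p under 0.05, with a median log2 fold change of -0.32. By the same rule 8.28% of all tested genes were lower and 7.95% higher. Aqp7, the channel by which glycerol leaves the adipocyte (-0.62), Prkar2b, a regulatory subunit of protein kinase A (-0.47), Pnpla2, the triglyceride lipase that Plin1 and Plin5 hold in check (-0.44), and Prkaca, the catalytic subunit of that kinase (-0.33), had the largest differences below 0 on the log2 scale among the 5, and Lipe, the hormone-sensitive lipase, was the smallest of them (-0.31). Pnpla3, a lipase relative on droplets, was higher by 0.79. Fewer partners were lower whichever library was left out, and fewer of all tested genes were lower as well. Abhd5, the partner of Plin1, had overlapping genotypes.

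Of 29 other droplet surface genes, 28 were tested, 3 were lower and 2 higher at an unadjusted p under 0.05, counts near the 8.28% and 7.95% of all tested genes, and their median was -0.10. Those lower were Clstn3 (-0.95), Gpat4, an acyltransferase that moves onto growing droplets (-0.61), and Aup1 (-0.44). Nsdhl, an enzyme of cholesterol synthesis, was higher by 1.05 and Bscl2, encoding seipin of the sites where droplets form, by 0.45. Fewer genes of this list were lower without either Sox4f/f mouse, and fewer were higher without Sox4f/f mouse 2. Over all tested genes both counts fell in these settings too. Dffa and Dffb, which carry the other CIDE-N domains, overlapped between the genotypes, and without Sox4-MKO mouse 2 both were higher at that limit, while without Sox4-MKO mouse 1 their median turned from 0.36 to -0.17.

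Of 11 transcription factors and coactivators linked to droplet genes in fat, 7 were lower and 1 higher at an unadjusted p under 0.05. Over all tested genes the shares were 8.28% and 7.95%, and the median log2 fold change of the list was -0.50. Ppargc1a (-1.21), Ppargc1b (-1.12), Ppara (-0.97) and Cebpb (-0.90) had the largest differences below 0, and Rxra was higher by 0.49. Ppara is also among the brown adipocyte markers. Ppargc1a had 48.2 and 22.4 FPKM in Sox4f/f mice 1 and 2 and 13.2 and 14.2 FPKM in mice labelled Sox4-MKO. The number lower fell whichever library was left out, in this list as over all tested genes. Pparg, a regulator of Plin1 and Cidec in adipocytes, had a log2 fold change of -0.32 with a limma p of 0.132.

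The genes with the pattern most like that of a coat gene were found by the distance between centred log2(FPKM + 1) values over the 4 libraries, as a description only. The search took coat genes with a mean FPKM over 100 in either genotype, against tested genes with a mean over 10. Plin3, Plin5, Cideb, Fitm1 and Fitm2 lay below that limit and were left out. Nearest to Cidea was Cpt1b, the carnitine palmitoyltransferase of muscle and brown fat, at a distance of 0.0362, with 321 and 347 FPKM in Sox4f/f and 187 and 181 FPKM in mice labelled Sox4-MKO, followed by Cdh2 and Rgl3. Plin2 lay nearest to Gpx1, Efnb1 and Rhoj, Plin1 to Uhrf2, Nit2 and Mpv17, Plin4 to Tm2d1, Mxd4 and Txndc9, and Cidec to Fubp1, Zmym2 and Oga.

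By position on GRCm38, Plin4 (chr17:56100591-56109803) and Plin5 (chr17:56111601-56117596) are neighbours on the minus strand, 1797 bases apart, and their differences between the genotypes were -0.09 and -0.69 on the log2 scale. Plin3 lies 159879 bases beyond Plin5 on the same strand. Promoter windows from RefSeq (GRCm38.p6, 250 bases before to 50 after each start) were found for 9 members in 11 windows, all but Cidea. The sequence upstream of this pair is shown because the genes adjoin yet differ in their values, and a stretch of 26 bases is shown for Cideb because it holds the only SOX match among the windows of the coat genes. Each is written from 5′ to 3′ on the strand of the gene, without the bases that either annotation transcribes for Plin4 and Plin5, and capitals mark a motif match.
Plin4, chr17:56109804-56110032, minus strand: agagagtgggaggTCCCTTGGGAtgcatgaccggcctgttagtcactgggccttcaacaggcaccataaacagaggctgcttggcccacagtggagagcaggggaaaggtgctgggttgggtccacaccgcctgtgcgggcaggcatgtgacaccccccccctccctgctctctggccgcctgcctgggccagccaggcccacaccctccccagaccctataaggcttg
Plin5, chr17:56117597-56117798, minus strand: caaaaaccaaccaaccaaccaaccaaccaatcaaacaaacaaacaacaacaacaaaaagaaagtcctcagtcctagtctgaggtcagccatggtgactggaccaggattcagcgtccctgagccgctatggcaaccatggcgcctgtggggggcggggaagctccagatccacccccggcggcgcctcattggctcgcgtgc
Cideb, chr14:55758441-55758466, minus strand: ccctcttcgaCTTTGTccctcttact

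The capitals in Plin4 are the EBF palindrome, 228 to 237 bases before the RefSeq start, and 0.904% of all 32851 windows hold it on either strand. Those in Cideb are the SOX core ACAAAG read on the other strand, 27 to 32 bases before the RefSeq start. By GENCODE M21 the transcript begins further upstream, at base 55758458, so there the match lies inside it. It is a match that 18.7% of all windows hold. The estrogen related receptor motif TCAAGGTCA (0.423% of windows) and the direct repeat bound by PPAR and RXR (0.0396%, or 0.381% with the fourth base of each copy free) were searched on both strands as well and matched none of the 11 windows.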

How the data were processed

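RNA sequencing was performed on BAT of 4 mice, 2 per genotype, grouped by the sample titles. The authors deposited 1 FPKM value per gene and library. Per the submitters' processing notes, Cufflinks 2.1.1, Cuffdiff and mm10 were used, and the aligner and annotation are not given in the sources used here. The labels describe a column extraction and a stranded kit, whereas the methods describe TRIzol and TruSeq. Since FPKM are not counts, limma 3.58.1 (R 4.3.3) with a trended prior was fitted on log2(FPKM + 1), two-sided, with genotype as the only term. The fit covered 12877 genes whose mean FPKM exceeded 1 in either genotype. It was also run on simulated data in which every gene had the same spread, so that run does not cover genes of larger spread. The log2(FPKM + 1) scale understates changes of low genes. Shares and ratios within a library were compared by exact permutation. Coordinates come from GENCODE M21 by symbol. Depth was estimated from genes with 1 transcript of at least 1500 nt. The alternatives comprised the mouse number as a block, omission of each library in turn, 3 planned scalings and 1 added after seeing the data, pseudocounts of 0.1 and 0.01, and other filters. The members and lists were chosen with earlier results of these data known. All members are named; partner genes are named where the genotypes do not overlap at an unadjusted p under 0.05, at most 4 per list and direction (3 for surface genes), by size, and Lipe, Abhd5, Pparg, Dffa, Dffb and Sox4 were added after their values were seen.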

Additional observations from a re-analysis of the deposited data

How the results depend on the processing

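Of 447 recomputed values, 399 were labelled as the same, and the cause of the other changes was not tested. For a single gene that label meant the same direction and side of the threshold. A count only had to stay near its main value, so 746 genes lower with the common sum, beside 1066, was labelled the same. Medians, shares and ratios only had to stay within the spread, so some changed sign, as the CIDE-N median did without Sox4-MKO mouse 1 (from 0.36 to -0.17). Plin1 turned to 0.0797 under quantile normalization, which also moved the difference in its share of perilipin FPKM from 1.70 to 4.77 percentage points. Leaving out single libraries moved the log2 fold change of Plin2 from -0.41 to 0.0139 (0.0129 without Sox4f/f mouse 2 and 0.0139 without Sox4-MKO mouse 1), Cidec from -0.51 to 0.0581 (without Sox4-MKO mouse 1), Plin3 from -0.50 to -0.27, Cideb from -1.42 to -0.45 and Fitm1 from 2.53 to 4.49. It moved members higher from 0 to 1, all genes lower from 380 to 1015 and higher from 433 to 1443, lipolysis partners lower from 1 to 4, higher from 0 to 1 and in median from -0.37 to -0.22, surface genes lower from 1 to 4 and higher from 1 to 3, CIDE-N genes higher from 0 to 2, and transcription factors lower from 3 to 6 and higher from 0 to 1. Where an arm held 1 mouse, it was assumed to vary like the other arm.

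The mouse numbers were not taken to pair samples. Deviations of the mice numbered 1 correlated at -0.012 between the genotypes over 12877 genes, and those of the mice numbered 2 mirror them by construction. A single correlation cannot decide whether the mice were paired. With the replicate block, 938 genes were lower and 970 higher, Plin3 had -0.38 and lost its call at an unadjusted p under 0.05, Cideb gained one at -0.93, and 2 lipolysis partners were lower. Cideb passed an unadjusted p under 0.05 with a common median (-0.96), quantile normalization (-1.01), the common sum without mitochondrially encoded genes and Ucp1 (-0.88) and pan-adipocyte scaling (-1.02). Lipolysis partners lower numbered 2 with quantile normalization (median -0.16), 1 with the common sum and 3 with no filter, and 4 surface genes were higher with the common sum. Scaling to 6 pan-adipocyte markers, chosen after seeing the data, moved the median of all genes from -0.05 to -0.16, left 444 genes lower and 722 higher with 216 at an adjusted p under 0.05, of which 1 was a member (Fitm1), and gave Plin3 -0.51 without the call, lipolysis partners 1 lower, 0 higher and a median of -0.45, and transcription factors 4 lower and 0 higher. Apart from that scaling, adjusted calls over all genes were 1 and 4 without Sox4f/f mouse 1 and mouse 2, and 0 in the other settings run. Depth limits Cideb and Fitm1 most.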
